A study of Mus musculus with 6 samples.

Results

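Alveolar macrophages clear inhaled particles, microbes, surfactant and dead cells from the air spaces of the lung, and the receptors they use for this were compared between macrophages with and without Sdha. The 34 genes described here were taken as a list of names: 8 scavenger receptors, 4 receptors for dying cells, 4 integrin chains, 5 Fc receptor chains, 10 Toll-like receptors, and 3 co-receptor or adaptor genes of the Toll-like receptors. Each of the 34 has 1 row among the 23282 rows of the count table. The RNA came from lung cells, 3 wildtype and 3 Sdha-KO libraries, sorted for the surface proteins SiglecF, CD11c, F4/80 and CD45 and against CD11b. The product of Sdha is the catalytic, flavin-carrying subunit of succinate dehydrogenase, an enzyme of the citric acid cycle and the respiratory chain. Sdha-KO mice carried floxed Sdha alleles with LysM-Cre, a Cre recombinase expressed from the Lyz2 locus, which is active in myeloid cells generally and not only in alveolar macrophages. The labels give no age, sex, strain background or treatment, do not say whether the wildtype mice carried floxed alleles or Cre, and do not say whether a library is 1 mouse or a pool. The p-values therefore reflect how far single libraries spread, and some of that spread may be technical. Batch numbers 1 to 3 in the labels each hold 1 library per genotype.

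Scavenger receptors bind modified lipoproteins, haemoglobin complexes and other polyanionic ligands. Receptors for dying cells recognise phosphatidylserine, either directly or through bridging proteins, in the process called efferocytosis. Fc gamma receptors bind the constant part of IgG on coated targets and signal through an activating motif in the shared gamma chain or, for Fcgr2b, through an inhibitory motif. Toll-like receptors recognise microbial lipids, proteins and nucleic acids, and most of them signal through the adaptor Myd88.

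Counts totalled 5400160 to 8472907 per library. Both batch 1 libraries stood apart from the other 4. They detected 7893 genes (wildtype) and 5438 genes (Sdha-KO), where the others detected 11383 to 13050. Of the 34 genes, 12 had no count in wildtype replicate 1, 16 had none in Sdha-KO replicate 1 and 10 had none in either. Values below are CPM, counts per 1000000 of a library's total after scaling by TMM composition factors, and the kit reads 3' ends, so that the values are not divided by transcript length. Where no count was found, the limit set by counting error alone is 3 counts, or between 0.25 and 0.666 CPM. Sdha itself was at 56.0, 65.5 and 72.2 CPM in wildtype and at 26.1, 21.0 and 22.8 CPM in Sdha-KO replicates 1 to 3. The genotypes did not overlap, and Sdha did not pass edgeR's test over 6 libraries (log2 fold change -1.47, adjusted p = 1.00). In batches 2 and 3 alone, with the replicate number as a block, it passed (log2 fold change -1.64, edgeR adjusted p = 0.0327). Lyz2, the Cre locus, had 0, 5.10 and 284 CPM in wildtype and 0, 0.744 and 5.66 CPM in Sdha-KO replicates 1 to 3. The cause of this spread was not tested. Of the sorting markers, Itgax (CD11c) was present in each library, at 274 to 488 CPM in wildtype and 168 to 286 CPM in Sdha-KO. Siglecf was at 103 to 138 CPM in wildtype and at 0, 39.6 and 45.3 CPM in Sdha-KO replicates 1 to 3.

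The alveolar macrophages of both genotypes devoted most of this receptor RNA to a few genes. In wildtype libraries the 8 most abundant members were Axl, Fcer1g, Cd36, Lrp1, Itgb2, Fcgr3, Cd14 and Scarb2, and they held 79.7% of the summed CPM of the 34 genes. The same 8 genes held 80.8% in Sdha-KO libraries, where Lrp1 was the most abundant and Cd36 was sixth. At the other end, Tyro3 and Tlr9 had no count in any library, and Tlr1, Timd4 and Stab1 were too low to be tested. The remaining 29 genes passed the filter on low counts.

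**Figure D1:**
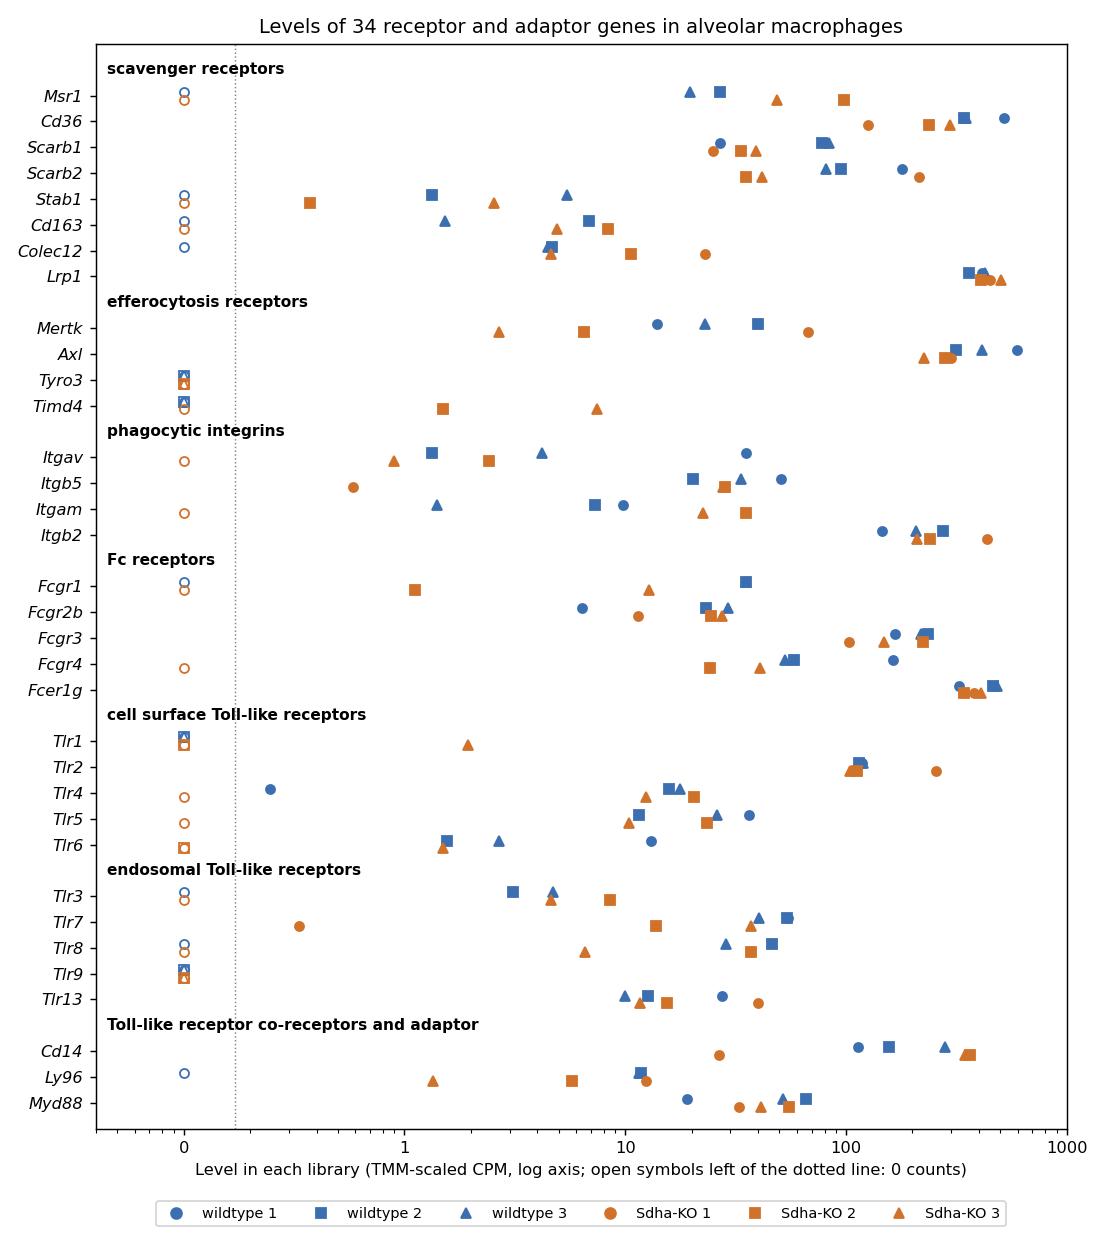
Level of each of the 34 genes in each library, in TMM-scaled CPM on a log axis, grouped by role; blue symbols are wildtype and orange symbols Sdha-KO libraries, and open symbols at the left mark libraries with no count. Lrp1 sits between 360 and 504 CPM in all 6 libraries, while Msr1, Fcgr1 and Tlr8 have counts in batches 2 and 3 only.

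With all 6 libraries, none of the 29 tested genes passed between genotypes. The test was edgeR's quasi-likelihood test with p-values adjusted by Benjamini-Hochberg over 9963 genes and a threshold of 0.05, and the adjusted p was 1.00 for each member. Over all tested genes 0.0502% were called. DESeq2 and limma-voom also called 0 of the 29, with 0 members (3.38% of all genes) and 3 members (10.3%, against 9.90% of all genes) at an unadjusted p under 0.05. At an unadjusted p under 0.05, edgeR gave 1 member, Cd36, out of 29, against 263 of the 9963 genes (2.64%). The fitted log2 fold change of Sdha-KO over wildtype was positive for 11 members and negative for 18, with a median of -0.17, and the median over all tested genes was -0.13. The precision was low: the median standard error was 1.54 on the log2 scale over the members and 1.98 over all tested genes. Adding the replicate number to that model as a block gave 0 members (1 at an unadjusted p under 0.05). Scaling by library totals alone moved the median of all tested genes to 0.05 and that of the members to 0.19. The sign of the members' median thus depends on the scaling. These totals include the ribosomal RNA gene Rn45s, whose share was uneven. For wildtype against Sdha-KO it was 36.3% against 20.9% (batch 1), 57.6% against 43.4% (batch 2) and 44.7% against 48.2% (batch 3). A smaller share leaves more of a total to the other genes. How far this gene moved the library-total values was not tested. The summed level of the 34 genes was 3037, 2886 and 3070 CPM in wildtype and 2501, 2704 and 2658 CPM in Sdha-KO replicates 1 to 3, without overlap on the TMM scale and with overlap by library totals alone.

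Without both batch 1 libraries, 0 of 29 members passed edgeR's test, and 0.251% of all tested genes did (7 members, or 24.1%, were at an unadjusted p under 0.05, against 10.2% of all genes then tested). The 29 then included Stab1 and not Tlr6. With the replicate number also as a block in those 4 libraries, which leaves 1 residual degree of freedom, Msr1 and Mertk passed. These 2 are 6.90% of 29 tested members, against 3.01% of all tested genes. In the same 4 libraries the mix of sexes differed between genotypes. The X-inactivation transcript Xist was at 1023 and 771 CPM in wildtype replicates 2 and 3 and at 92.6 and 123 CPM in the Sdha-KO pair. Ddx3y, on the Y chromosome, was at 0 and 18.2 CPM in the same wildtype libraries and at 65.8 and 64.4 CPM in the same Sdha-KO libraries. The mix of sexes and the genotype cannot be told apart there. In batch 1 the order was the opposite: wildtype replicate 1 had no count of Xist and 27.2 CPM of Ddx3y, and Sdha-KO replicate 1 had 224 CPM of Xist and no count of Ddx3y.

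**Figure D2:**
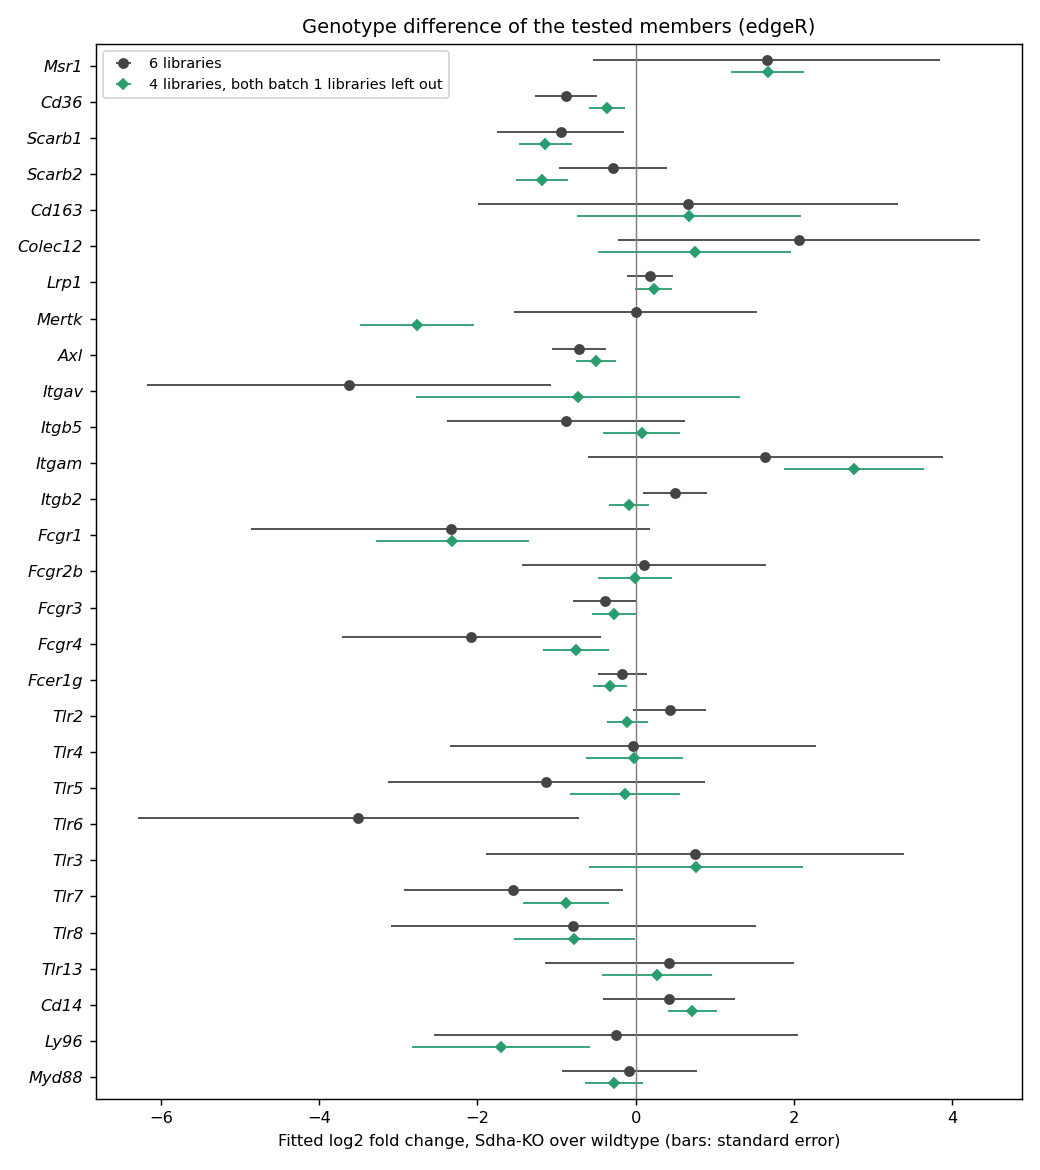
Fitted log2 fold change of Sdha-KO over wildtype for the 29 tested genes, with bars of 1 standard error, from all 6 libraries (circles) and from the 4 libraries of batches 2 and 3 (diamonds; no diamond for Tlr6, which was then too low to test). Most of the 6-library bars reach 0; Mertk moves from 0 to -2.77 without the batch 1 libraries.

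Among the scavenger receptors, the class A receptor gene Msr1, which takes up modified lipoproteins, was absent from both batch 1 libraries and higher in Sdha-KO in both other batches. The gene lies on chromosome 8 (39581685 to 39642673, minus strand, GENCODE M21 on mm10). Its levels were 0, 26.9 and 19.7 CPM in wildtype replicates 1 to 3 and 0, 97.6 and 48.9 CPM in Sdha-KO replicates 1 to 3. Within batches 2 and 3 both Sdha-KO libraries lay above both wildtype libraries. The log2 fold change was 1.65 with an SE of 2.19 over 6 libraries, and 1.67 with an SE of 0.46 without both batch 1 libraries (edgeR adjusted p = 0.273). With the block as well, the change was 3.02-fold (log2 1.60, SE 0.41, edgeR adjusted p = 0.034).

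Cd36, a class B receptor for oxidised lipoproteins and long-chain fatty acids, had the highest mean of the scavenger receptors in wildtype cells, above Lrp1 (400 ± 35.6 CPM, SD, n = 3) by less than the spread between libraries. It was at 523, 343 and 351 CPM in wildtype replicates 1 to 3 and at 126, 238 and 297 CPM in Sdha-KO replicates 1 to 3. The highest Sdha-KO library was under the lowest wildtype library, with means of 406 ± 102 and 220 ± 87.1 CPM (SD, n = 3 each). The fitted difference was 1.84-fold, with a log2 value of -0.88 (SE 0.39, unadjusted p = 0.0417, edgeR adjusted p = 1.00). Much of it lay in batch 1, where the log2 ratio was -2.06, against -0.53 in batch 2 and -0.24 in batch 3. Scaled by library totals alone the 2 genotypes overlapped.

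Scarb1, the high-density lipoprotein receptor, was lower in Sdha-KO in 3 of 3 batches. Wildtype replicates 1 to 3 had 26.8, 77.7 and 84.0 CPM and Sdha-KO replicates 1 to 3 had 25.0, 33.5 and 39.2 CPM, so that the groups overlapped only through wildtype replicate 1 (log2 fold change -0.95, SE 0.80). Scarb2, a lysosomal membrane protein of the same family that carries glucocerebrosidase to lysosomes, had 180, 95.2 and 80.8 CPM in wildtype and 214, 35.3 and 41.6 CPM in Sdha-KO replicates 1 to 3. Its log2 ratio was 0.25 in batch 1 and -1.43 and -0.96 in batches 2 and 3. Lrp1, a large endocytic receptor that also binds calreticulin on dying cells, was the steadiest of the genes detected in all libraries, with a highest level 1.40 times its lowest. It had 414, 360 and 427 CPM in wildtype and 448, 408 and 504 CPM in Sdha-KO replicates 1 to 3, a log2 fold change of 0.18 (SE 0.29).

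The other scavenger receptors were low. Colec12, a collectin-like receptor, had 0, 4.66 and 4.46 CPM in wildtype and 23.0, 10.6 and 4.62 CPM in Sdha-KO replicates 1 to 3. Cd163, the haemoglobin-haptoglobin receptor typical of other tissue macrophages, reached at most 8.37 CPM and was absent from batch 1. Stab1, a receptor for modified lipoproteins and phosphatidylserine, reached at most 5.47 CPM. Summed over the 8 scavenger receptors, the mean level was 1011 ± 119 CPM for wildtype and 870 ± 62.5 CPM for Sdha-KO (SD, n = 3), and the groups overlapped.

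Receptors for dying cells were represented almost entirely by Axl and Mertk, tyrosine kinases that bind phosphatidylserine through bridging proteins such as Gas6. Axl, the member of this family typical of alveolar macrophages, had 594, 316 and 412 CPM in wildtype and 298, 282 and 227 CPM in Sdha-KO replicates 1 to 3. Every Sdha-KO library lay below every wildtype library, with means of 441 ± 141 and 269 ± 37.7 CPM (SD, n = 3). The log2 fold change was -0.71 (SE 0.34, edgeR adjusted p = 1.00) over 6 libraries and -0.51 (SE 0.25, edgeR adjusted p = 0.557) without both batch 1 libraries. Under scaling by library totals the genotypes of Axl overlapped as well.

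Mertk, on chromosome 2 (128698956 to 128802894, plus strand, GENCODE M21 on mm10), went in opposite directions in the batches. It had 14.0, 40.2 and 22.9 CPM in wildtype and 67.7, 6.51 and 2.68 CPM in Sdha-KO replicates 1 to 3. Sdha-KO replicate 1 was thus the highest of all 6 libraries and Sdha-KO replicates 2 and 3 were the lowest. Over 6 libraries the log2 fold change was 0 to 2 decimals (SE 1.54). Without both batch 1 libraries it was -2.77 (SE 0.72, edgeR adjusted p = 0.262), and with the block as well -2.84, a 7.15-fold difference (SE 0.76, edgeR adjusted p = 0.0471). Without Sdha-KO replicate 1 alone, the value was -2.47. Tyro3, the third kinase of the family, had no count. Timd4, a direct phosphatidylserine receptor of resident macrophages in other tissues, had no count in the wildtype group, 8 counts in Sdha-KO replicate 2 and 50 in Sdha-KO replicate 3. Pooled over the group, this was at least 16.5-fold higher than the 3 counts that the wildtype zeros allow, and 1 library held most of it.

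**Figure D3:**
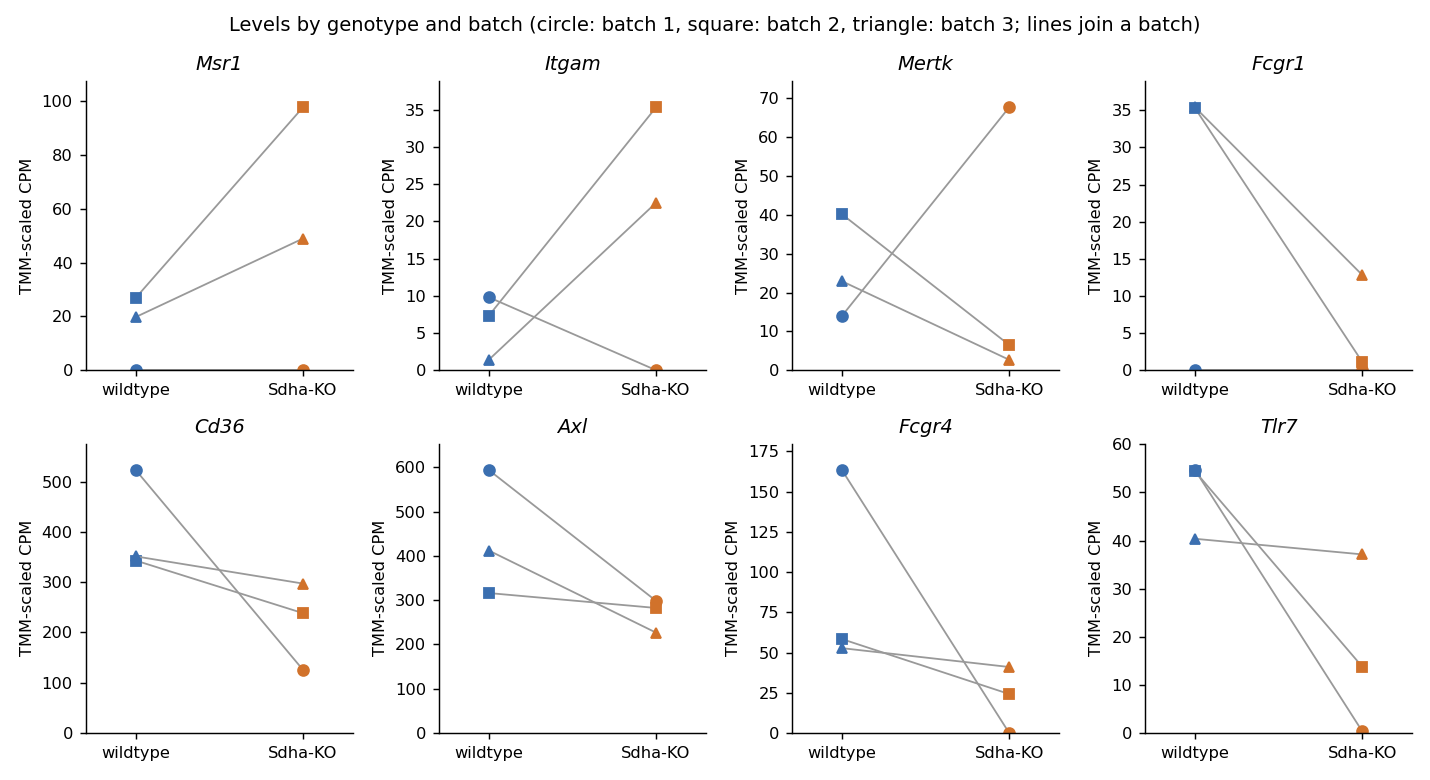
TMM-scaled CPM of 8 genes by genotype on linear axes that start at 0, with grey lines joining the 2 libraries of a batch (circles, squares and triangles for batches 1, 2 and 3). Msr1 and Itgam slope up and Fcgr1 slopes down in batches 2 and 3, Mertk slopes up in batch 1 only, and Cd36, Axl, Fcgr4 and Tlr7 slope down in each batch.

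The phagocytic integrins were led by Itgb2, the common beta chain (CD18) of leukocyte integrins. It had 145, 275 and 208 CPM in wildtype and 434, 241 and 210 CPM in Sdha-KO replicates 1 to 3, with overlapping genotypes and a log2 fold change of 0.49 (SE 0.40). Itgam encodes CD11b, the alpha chain that pairs with Itgb2 in complement receptor 3 and the surface protein whose absence defined the sort. Its RNA was at 9.80, 7.32 and 1.40 CPM in wildtype and 0, 35.3 and 22.5 CPM in Sdha-KO replicates 1 to 3. In batches 2 and 3 both Sdha-KO libraries lay above both wildtype libraries, and in batch 1 only the wildtype library had counts. The log2 fold change was 1.64 (SE 2.24) over 6 libraries. Without both batch 1 libraries it was 2.76 (SE 0.88, edgeR adjusted p = 0.363), and with the block as well 3.10 (SE 0.85, edgeR adjusted p = 0.0521). Exons of Itgam overlap those of Gm49368 on the same strand, so this count is uncertain. Itgav and Itgb5 form the integrin that binds dying cells through Mfge8. Itgb5 had 50.9, 20.2 and 33.5 CPM in wildtype and 0.584, 28.5 and 27.7 CPM in Sdha-KO replicates 1 to 3. Itgav had 35.4, 1.33 and 4.20 CPM against 0, 2.42 and 0.894 CPM, so most of its counts came from wildtype replicate 1.

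Beside the values of Itgam, Msr1 and Timd4, markers of other lung cells were summed in each library. The gate for CD45 would remove epithelium and endothelium, the gates for SiglecF, CD11c and F4/80 would remove lymphocytes, and the gate against CD11b would remove neutrophils and most monocytes. The summed level of 14 monocyte and interstitial macrophage markers was 33.1 to 120 CPM in wildtype and 113 to 290 CPM in Sdha-KO libraries. Apoe (33.6, 181 and 70.5 CPM) and Ccr2 (79.0, 27.7 and 68.1 CPM) gave much of this in Sdha-KO replicates 1 to 3. The 8 tested markers had positive fitted values. Ms4a7, too low to be tested over 6 libraries, went the other way. It had 7.99 and 11.6 CPM in wildtype and 0.372 and 0 CPM in Sdha-KO replicates 2 and 3. Of the 14 markers, Folr2 and Cd209f were at 0 throughout, and Ly6c2 was at 0 in all Sdha-KO libraries. The summed level of 10 conventional dendritic cell markers was 45.5 to 75.0 CPM in wildtype and 18.4, 208 and 409 CPM in Sdha-KO replicates 1 to 3. For 9 neutrophil markers with a row in the table the sum was 80.7 to 111 CPM in wildtype and 176 to 238 CPM in Sdha-KO libraries, with no overlap. Single genes gave much of the higher sum, such as Mmp8 (89.1 CPM, Sdha-KO replicate 1) and Cxcr2 (80.9 CPM, Sdha-KO replicate 2). The 5 tested neutrophil markers had positive fitted values. Csf3r, untested over 6 libraries, was lower: 5.55 CPM (batch 2) and 4.46 CPM (batch 3) for wildtype, with no Sdha-KO count in either batch. By batch, wildtype detected 3, 9 and 9 of the 9 markers, Sdha-KO 5, 6 and 8. The 15 alveolar macrophage markers summed to 8985 to 10717 CPM in wildtype and 8255 to 10580 CPM in Sdha-KO libraries, but Chil3 alone gave 3507 to 5424 CPM of this and single markers differed. Ear2 had 634, 831 and 882 CPM in wildtype and 306, 173 and 168 CPM in Sdha-KO replicates 1 to 3. Siglecf, Krt79 and Cidec were also lower in Sdha-KO without overlap, and Car4 was higher without overlap (277 to 485 and 757 to 935 CPM). The eosinophil markers Prg2, Epx and Prg3 had no count, and all 6 eosinophil markers summed to at most 1.78 CPM. Markers of T, B and NK cells summed to 0 to 33.7 CPM in wildtype and 0 to 38.6 CPM in Sdha-KO libraries, with Ncr1 at 0 throughout. Markers of lung epithelium and endothelium summed to 244 to 398 CPM and 85.2 to 696 CPM. None of the 50 tested markers in these lists passed edgeR's test over 6 libraries. At an unadjusted p under 0.05 were 6 of the 50, 5 of them alveolar macrophage markers, against 2.64% of all tested genes. In the blocked fit of batches 2 and 3, the one in which Msr1 and Mertk passed, 11 of 56 tested markers passed, against 3.01% of all tested genes. Of these, 4 markers of other cells were higher in Sdha-KO: Ccl22, Ccr7, Cxcr2 and C1qb (edgeR adjusted p = 9.2e-06, 0.000432, 0.00187 and 0.00974). Of the alveolar macrophage markers, 6 were lower (Ear2, Fabp1, Cidec, Siglecf, Mrc1 and Krt79) and Car4 was higher, with edgeR adjusted p from 1.6e-07 to 0.011. Without the block, Ear2 alone of these passed (edgeR adjusted p = 0.0155). The part of such cells in the receptor values was not tested. In bulk RNA, fewer cells of a type and less RNA per cell cannot be told apart.

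The Fc receptor genes Fcgr2b, Fcgr4, Fcgr3 and Fcer1g lie together on chromosome 1 (170958617 to 171234365, GENCODE M21 on mm10), within 275.7 kb. Reads that match more than 1 of these genes could be split between their rows, since the rule for such reads is not given in the sources used here. Fcer1g, the signalling chain shared by the activating receptors, was the most abundant, with 324, 465 and 483 CPM in wildtype and 381, 343 and 408 CPM in Sdha-KO replicates 1 to 3 (log2 fold change -0.17, SE 0.31). The groups overlapped through batch 1. Fcgr3, an activating receptor of low affinity, was lower in Sdha-KO in 3 of 3 batches, with 167, 236 and 219 CPM against 103, 224 and 149 CPM (log2 fold change -0.39, SE 0.41).

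Fcgr4, an activating receptor for IgG2 subclasses, had 163, 58.4 and 52.7 CPM in wildtype and 0, 24.2 and 41.0 CPM in Sdha-KO replicates 1 to 3. The genotypes did not overlap, also under scaling by library totals. The log2 fold change was -2.08 (SE 1.64, edgeR adjusted p = 1.00) over 6 libraries and -0.76 (SE 0.41, edgeR adjusted p = 0.609) without both batch 1 libraries. Fcgr1, the receptor of high affinity, was absent from batch 1, at 35.3 and 35.4 CPM in wildtype replicates 2 and 3 and at 1.12 and 12.8 CPM in Sdha-KO replicates 2 and 3. The log2 fold change was -2.34 (SE 2.53) over 6 libraries and -2.32 (SE 0.96, edgeR adjusted p = 0.471) in those 4. Fcgr2b, the inhibitory receptor, was at 6.37, 23.3 and 29.3 CPM in wildtype and 11.4, 24.5 and 27.4 CPM in Sdha-KO replicates 1 to 3, a log2 fold change of 0.10 (SE 1.54). Of the 5 fitted values 4 were thus negative, where 5480 of all 9963 tested genes were negative. Among these 4, only the value of Fcgr4 exceeded its SE.

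Summed over the 5 Fc receptor genes, the level was 661, 818 and 819 CPM in wildtype and 495, 616 and 638 CPM in Sdha-KO replicates 1 to 3. The genotypes did not overlap on the TMM scale. By library totals alone the CPM sums were 655, 634 and 801 in wildtype and 700, 614 and 589 in Sdha-KO replicates 1 to 3, and they overlapped.

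**Figure D4:**
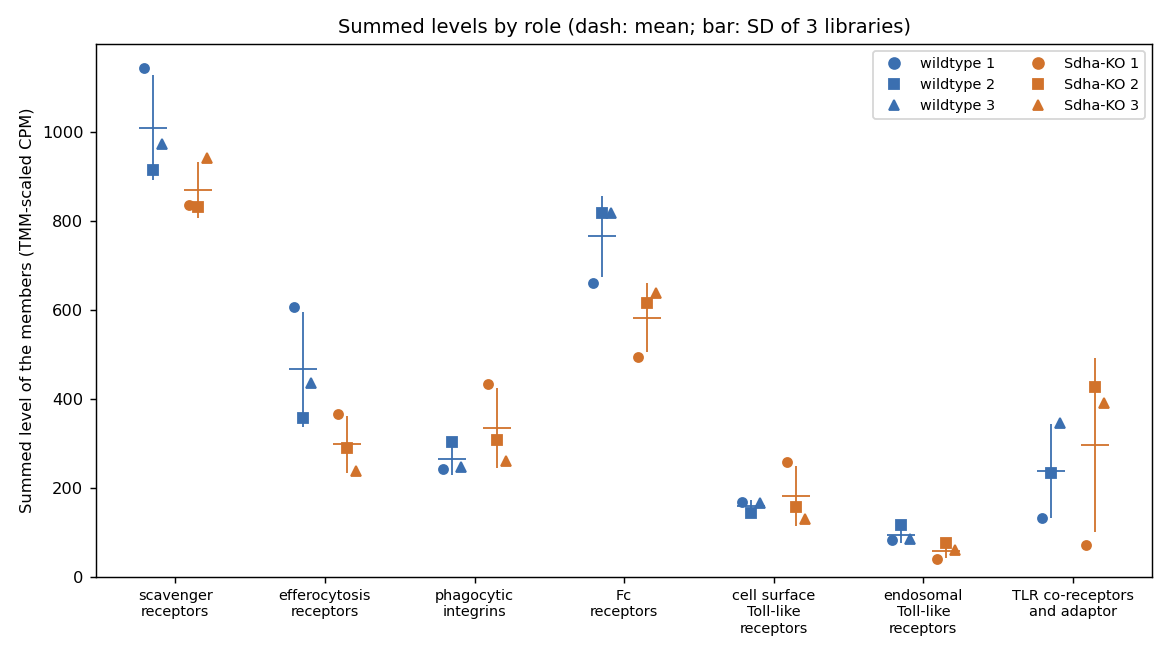
Summed TMM-scaled CPM of the members of each role in each library, on a linear axis that starts at 0; dashes are means and bars the SD of 3 libraries per genotype. The Fc receptor and endosomal Toll-like receptor sums do not overlap between genotypes on this scale, and the other roles do.

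Of the Toll-like receptors at the cell surface, Tlr2, which recognises bacterial lipopeptides, was the most abundant. It was nearly constant in wildtype at 118, 115 and 120 CPM, and was at 257, 112 and 104 CPM in Sdha-KO replicates 1 to 3 (log2 fold change 0.43, SE 0.46). Its partner genes were scarce, with Tlr1 detected in 1 library with 13 counts. Tlr6 was at 13.1, 1.55 and 2.67 CPM in wildtype and 0, 0 and 1.49 CPM in Sdha-KO replicates 1 to 3. Tlr6 did not overlap between genotypes on the TMM scale and overlapped by library totals, and 10 counts in 1 library were all that the Sdha-KO group held. Tlr4, the endotoxin receptor, had 0.245, 15.8 and 17.7 CPM in wildtype and 0, 20.5 and 12.4 CPM in Sdha-KO replicates 1 to 3. Tlr5, the flagellin receptor, had 36.5, 11.5 and 26.0 CPM against 0, 23.4 and 10.4 CPM. Both genes overlapped between genotypes in batches 2 and 3.

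Cd14, which hands endotoxin to Tlr4, was more abundant than Tlr4 in every library. It had 114, 156 and 282 CPM in wildtype and 26.5, 366 and 348 CPM in Sdha-KO replicates 1 to 3. In batches 2 and 3 the Sdha-KO libraries lay above the wildtype libraries, and in batch 1 the order was opposite. The log2 fold change was 0.42 (SE 0.84) over 6 libraries and 0.72 (SE 0.31, edgeR adjusted p = 0.488) without both batch 1 libraries. Ly96, the MD-2 protein that binds endotoxin together with Tlr4, had 0, 11.8 and 11.6 CPM in wildtype and 12.4, 5.76 and 1.34 CPM in Sdha-KO replicates 1 to 3. Myd88, the adaptor of most of these receptors, had 19.1, 65.7 and 51.9 CPM against 32.8, 55.4 and 41.1 CPM (log2 fold change -0.08, SE 0.85). Exons of Myd88 overlap those of Acaa1a on the other strand, and exons of Fcgr2b, Itgav, Stab1 and Tlr3 also overlap a gene on the other strand, so these counts are uncertain where strand was not used.

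Of the endosomal receptors for nucleic acids, Tlr7, Tlr8 and Tlr13 lie on the X chromosome, and the mix of sexes differed between the 2 libraries of each batch as given above, in 1 direction in batch 1 and the other in batches 2 and 3; its part in their values was not tested. Tlr7, which senses single-stranded RNA, was at 54.7, 54.4 and 40.4 CPM in wildtype and 0.334, 13.8 and 37.1 CPM in Sdha-KO replicates 1 to 3. It was lower in Sdha-KO without overlap on both scales, with a log2 fold change of -1.54 (SE 1.39, edgeR adjusted p = 1.00). The batches differed widely, with log2 ratios of -7.36 in batch 1, -1.98 in batch 2 and -0.12 in batch 3. Its neighbour Tlr8 was absent from batch 1 and had 46.4 and 28.8 CPM in wildtype and 37.0 and 6.56 CPM in Sdha-KO replicates 2 and 3. Tlr13, a sensor of bacterial ribosomal RNA, was higher in Sdha-KO in 3 of 3 batches by small steps, at 27.4, 12.6 and 9.93 CPM against 40.1, 15.4 and 11.6 CPM (log2 fold change 0.43, SE 1.57). Tlr3, the receptor for double-stranded RNA, reached at most 8.55 CPM and was absent from batch 1. The summed level of the 5 endosomal receptors was 82.1, 117 and 83.8 CPM in wildtype and 40.5, 74.8 and 59.9 CPM in Sdha-KO replicates 1 to 3. These sums did not overlap, also by library totals alone, and Tlr7 and Tlr8 made most of the difference.

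Counted over all tested members, genotypes did not overlap in 5 of 29 genes (Cd36, Axl, Fcgr4, Tlr6 and Tlr7), all lower in Sdha-KO, which is 17.2%. Over all tested genes 14.3% did not overlap, 5.04% with Sdha-KO higher and 9.27% with Sdha-KO lower. By library totals alone 2 members, Fcgr4 and Tlr7, did not overlap, both lower, or 6.90% of 29, against 13.4% of all tested genes in either direction and 6.92% lower. The direction was the same in all 3 batches for 10 of 29 members, 3 higher (Lrp1, Colec12 and Tlr13) and 7 lower (the 5 above, Scarb1 and Fcgr3), or 34.5%, against 31.3% of all tested genes. Without both batch 1 libraries 14 of 29 tested members did not overlap, 3 higher and 11 lower, or 48.3%, against 43.9% of all genes then tested. The split by direction over all genes was not counted there, so the 3 and 11 have no background beside them. On the TMM scale the shares for either direction together lay near those of all tested genes. For lower in Sdha-KO alone, over 6 libraries, 17.2% of members stood against 9.27% of all tested genes. By library totals alone the share in either direction was under that of all tested genes, and the lower share was near it.

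Promoter sequences are shown for Itgam and Fcgr1, 2 myeloid receptor genes whose levels went in opposite directions in batches 2 and 3; they were chosen after their values were seen. Both are given 5′ to 3′ on the strand of the gene, from 250 bases before to 50 bases after its start (RefSeq, GRCm38.p6). Capitals mark GAGGAA on either strand, a core sequence bound by the myeloid ETS factor PU.1. Itgam lies at chr7:128062390-128062689 on the plus strand and Fcgr1 at chr3:96293920-96294219 on the minus strand.
Itgam: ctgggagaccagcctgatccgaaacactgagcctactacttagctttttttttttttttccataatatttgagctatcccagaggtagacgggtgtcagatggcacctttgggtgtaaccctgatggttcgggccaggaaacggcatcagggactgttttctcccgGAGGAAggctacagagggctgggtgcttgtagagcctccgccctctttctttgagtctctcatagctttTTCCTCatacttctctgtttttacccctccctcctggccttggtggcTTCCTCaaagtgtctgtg
Fcgr1: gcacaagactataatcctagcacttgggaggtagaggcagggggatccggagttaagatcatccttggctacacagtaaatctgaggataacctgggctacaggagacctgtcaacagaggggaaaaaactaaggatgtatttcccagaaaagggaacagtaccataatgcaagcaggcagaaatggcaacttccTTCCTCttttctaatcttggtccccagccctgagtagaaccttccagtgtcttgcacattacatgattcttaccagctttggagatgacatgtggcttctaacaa
The Itgam window held 3 matches and the Fcgr1 window 1. The table matched 26 of the 34 members with 29 promoters, of which 12 (41.4%) held GAGGAA on either strand. Of all 32851 promoters in the table, 28.3% held it. The core of the hypoxia response element, ACGTG or GCGTG on either strand, was in 8 of the 29 (27.6%) and in 43.8% of all promoters. Matches are a description of the letters only.

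Other genes of the same pathways, taken from lists chosen beside the members, were read in the same fit. None of 78 tested genes in 5 lists passed in either direction over 6 libraries in edgeR's test. At an unadjusted p under 0.05 were 2 (Lgals3 and Itgax), against 2.64% of all tested genes. The Toll-like receptor signalling list had 22 tested genes, 11 positive and 11 negative, with a median log2 fold change of -0.04. Its most abundant genes were Hsp90b1, a chaperone of these receptors (366 to 961 CPM), and Unc93b1, which brings the endosomal receptors to endosomes (30.3 to 116 CPM). Cnpy3, another chaperone of the receptors, had 157, 44.6 and 70.0 CPM in wildtype and 29.2, 37.6 and 57.4 CPM in Sdha-KO replicates 1 to 3.

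The list of Fc receptor and activating-motif signalling also had 11 positive and 11 negative genes of 22 tested. Fcgrt, which encodes the neonatal Fc receptor that recycles IgG, had 188, 129 and 113 CPM in wildtype and 0.0834, 22.3 and 58.7 CPM in Sdha-KO replicates 1 to 3, with no overlap. It passed in the 4 libraries of batches 2 and 3 with the block (3.26-fold lower, edgeR adjusted p = 0.034). Cdc42, a GTPase of phagocytic cup formation, had 370 to 401 CPM in wildtype and 402 to 521 CPM in Sdha-KO libraries. Tyrobp, the adaptor DAP12, had 259 to 361 CPM in wildtype and 245 to 304 CPM in Sdha-KO libraries.

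In the list of efferocytosis ligands and engulfment genes, 8 of 15 tested genes were positive, against 45.0% of all tested genes. Mfge8, the bridge between phosphatidylserine and the Itgav-Itgb5 integrin, had 39.0, 16.4 and 13.8 CPM in wildtype and 9.18, 75.7 and 189 CPM in Sdha-KO replicates 1 to 3. Like Mertk it went one way in batch 1 and the other way in batches 2 and 3. In the blocked fit of the 4 batch 2 and 3 libraries it was 8.10-fold higher (edgeR adjusted p = 0.000546), and without the block its adjusted p was 0.0609. C1qb, like Cxcl16 and Mrc1 below named after its values were seen, is a chain of the complement component that coats dying cells and also a marker in the monocyte and interstitial macrophage list. It was 11.1-fold higher in that blocked fit (edgeR adjusted p = 0.00974). The most abundant genes of the list were Calr (calreticulin, 630 to 1381 CPM) and Sirpa, the inhibitory receptor for CD47 (243 to 437 CPM), and both overlapped between genotypes.

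In the list of scavenger receptors outside the 34 genes, which also holds the galectin gene Lgals3, 6 of 7 tested genes were positive, against 45.0% of all tested genes. The median log2 fold change of 0.67 was the value of Ager (SE 1.54). Without both batch 1 libraries, Ager was at 0.01, Marco at 0.03 and Mrc1 at -0.93. The other 4, Cd68, Olr1, Cxcl16 and Lgals3, were then at 0.48, 0.44, 2.42 and 0.88. Lgals3, the carbohydrate-binding galectin, had 1198, 843 and 1010 CPM in wildtype and 2599, 1646 and 1736 CPM in Sdha-KO replicates 1 to 3. The genotypes did not overlap, and the log2 fold change was 0.97 (SE 0.28, unadjusted p = 0.00496, edgeR adjusted p = 1.00). Olr1, a lectin-like receptor for oxidised lipoprotein, had 236 to 525 CPM in wildtype and 598 to 759 CPM in Sdha-KO libraries, also with no overlap. In the blocked fit of batches 2 and 3, Lgals3 and Cxcl16 were higher and the mannose receptor gene Mrc1 was lower (edgeR adjusted p = 0.00191, 0.000306 and 0.00345). Of the integrin list, 8 of 12 tested genes were positive. Its lead genes were Itgb1 (236 to 327 CPM in wildtype and 297 to 721 CPM in Sdha-KO libraries) and Apbb1ip, an integrin activator (349 to 409 and 232 to 293 CPM, with no overlap). Itgax had the smallest unadjusted p of that list (log2 fold change -0.84, SE 0.37, unadjusted p = 0.0414, edgeR adjusted p = 1.00).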

How the data were processed

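The authors sequenced QuantSeq 3' libraries and deposited whole-number counts of reads per gene, 1 column per library, with no normalization, per the labels. Reads were aligned with Bowtie2 to mm10 and bedtools was used, per the submitters' processing notes; for versions, annotation, strand setting and reads with several matches, the answer is not given in the sources used here. From the deposited counts, genes were filtered with edgeR 4.0.16 (filterByExpr, minimum count 10), scaled by TMM and tested in R 4.3.3 with a robust quasi-likelihood fit on genotype alone, with Benjamini-Hochberg adjustment over all 9963 tested genes and a threshold of 0.05. The SE is the fold change on the log2 scale divided by the square root of F. Replicate numbers are batch numbers in the labels, so they pair the libraries. Same-numbered libraries had correlations of 0.155, 0.117 and 0.126 of their deviations from the group means, against -0.152 to 0.111 for the others.

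Alternatives were the replicate block, batches 2 and 3 alone (unblocked and blocked), RLE size factors, library totals alone, no filter, DESeq2 1.42.0, limma-voom 3.58.1 and leaving out each library in turn. The fit was run on simulated data as a check of the code. The simulated spread was smaller than that of these libraries, so the check does not bear on the members. The 34 genes and all lists were chosen with earlier results of these data known. All 34 genes are described; of the pathway lists the 2 most abundant and the 2 of smallest p are named, except 1 gene that is not reported here. Rn45s, a ribosomal RNA gene, held 20.9% to 57.6% of a library's counts and stayed in the totals. Gene positions are from GENCODE M21. No protein sequences were used here.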

Additional observations from a re-analysis of the deposited data

How the results depend on the processing

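The depth and spread of 3 libraries per genotype limited these results: the biological coefficient of variation was 1.40 over 6 libraries and 0.677 without both batch 1 libraries, which missed many abundant genes (of 3447 genes abundant in batches 2 and 3, 136 were missing from the wildtype library and 612 from the Sdha-KO library).

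The count of all genes past the threshold was 5 as reported. It was 9 by library totals alone, 48 without the filter, 21 with DESeq2, 72 with DESeq2 and the replicate block, 79 with limma-voom, 27 without both batch 1 libraries, 324 without them and with the replicate block, and 0 with the replicate block alone in edgeR (296 genes at an unadjusted p under 0.05). Leaving out each library in turn gave 0 to 13. The count of members past the threshold was 2 without both batch 1 libraries with the replicate block, and 0 in each other setting, so the replicate block over 6 libraries changed no member's call. Members without overlap between genotypes numbered 5 as reported, 2 by library totals, 14 without both batch 1 libraries and 5 to 12 with each library left out. The median log2 fold change of the members was -0.17 as reported and -0.45 with the pairing block in edgeR and in DESeq2. It was 0.19 by library totals, -0.53 with limma-voom and -0.44 to 0.10 with each library left out. Over all tested genes it was -0.13 as reported, -0.48 and -0.50 with the block in edgeR and DESeq2, 0.05 by library totals and -0.65 with limma-voom. Without both batch 1 libraries it was -0.27 for the members and -0.02 for all tested genes. With the block as well, these were -0.28 and -0.13.

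Of 427 values of single members under these alternatives, 379 kept their direction and side of the threshold, 2 passed it and 46 reversed; 13 of 29 members never reversed. Reversed values were, by library totals, Scarb2 0.19, Mertk 0.64, Fcer1g 0.13, Tlr4 0.10, Ly96 0.27 and Myd88 0.21. With limma-voom they were Msr1 -0.23, Itgam -0.82, Cd14 -0.67, Ly96 1.35 and Myd88 0.12. Without both batch 1 libraries they were Itgb5 0.0752, Itgb2 -0.0882, Fcgr2b -0.00616 and Tlr2 -0.105, and with the block added Itgb5 0.118, Itgb2 -0.0776 and Tlr2 -0.106. With the replicate block alone Cd14 was at -0.136 and Myd88 at 0.0615, and with DESeq2 and the block at -0.136 and 0.0594. Mertk was at 0.0195 with RLE size factors, 0.0204 without the filter and 0.0201 with DESeq2. With each library left out, ranges that crossed 0 were Scarb2 -1.63 to 0.14, Cd163 -0.17 to 2.50, Mertk -2.47 to 0.53, Fcgr2b -0.32 to 0.51, Tlr2 -0.12 to 0.65, Tlr4 -0.84 to 0.56, Tlr3 -0.15 to 1.49, Tlr13 -0.30 to 0.98, Ly96 -1.12 to 0.22 and Myd88 -0.45 to 0.27. The cause was not tested for these changes.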
